A study of Homo sapiens with 9 samples.

Results

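EPO and THPO encode erythropoietin and thrombopoietin, hormones by which the liver and kidney control the making of red blood cells and platelets. Both were taken from the count table by their gene symbols, which gave 2 of the 60683 genes listed, each with 1 Ensembl identifier. RNA had been sequenced from Hep3B cells, an established human liver cancer line, after 24 hours in 1 of 3 conditions with 3 libraries each. The first group received DMSO vehicle at 20% O2, the second received DMSO vehicle at 1% O2, and the third received 32-134D, an inhibitor of the hypoxia-inducible factors (HIFs), at 1% O2. All 9 libraries therefore came from 1 cell line grown in 6-well plates, the labels call the replicates biological, and 32-134D was not given at 20% O2. Nothing else in the labels separates the replicates, so the p-values measure the spread between replicate cultures of 1 line. Whether these were parallel wells or separate experiments is not stated.

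Erythropoietin is secreted by the kidney in adults and by the liver before birth. It binds the erythropoietin receptor on red cell precursors and signals through JAK2 and STAT5. Its gene is a classic target of the HIFs: prolyl hydroxylases mark the HIF α subunits for destruction while oxygen is present, and when oxygen falls the α subunits pair with ARNT and activate transcription. Hep3B cells have long been used to study this response because they make EPO in hypoxia. Thrombopoietin is made mainly by hepatocytes. It acts on megakaryocytes and blood stem cells, and its circulating level is set in large part by uptake into platelets. The asialoglycoprotein receptor of hepatocytes, a heterodimer of ASGR1 and ASGR2, takes up aged platelets and can raise THPO transcription through JAK2 and STAT3.

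Total counts ran from 6013980 to 40549699 reads per library. The test covered 22672 genes, those whose summed count reached 10. Levels are given as CPM, the counts of a gene relative to the TMM-scaled size of its library, and a gene was called when edgeR's quasi-likelihood test gave a Benjamini-Hochberg FDR below 0.05 with a fold change above 1.5. Replicate 3 of 32-134D stood apart from its group. The chi-square per degree of freedom between it and replicates 1 and 2 was 40.5 and 36.2, against 2.08 between replicates 1 and 2, so results that rest on it are also given without it. Replicate 1 of each vehicle group also differed more from its fellows, with 6.72 and 13.3 against 1.64 at 20% O2 and 8.63 and 12.96 against 2.60 at 1% O2. All 10 hepatocyte markers had over 3 counts in every library, with summed CPM of 18395 to 19851 in vehicle at 20% O2, 13483 to 16819 in vehicle at 1% O2 and 11839 to 18176 in 32-134D. The lower sum in hypoxia was largely that of 1 gene, APOB, at 4487 ± 1077, 406 ± 24.6 and 3520 ± 705 CPM, while ALB, SERPINA1 and TF were not called in hypoxia. AFP was also called lower in hypoxia (log2 fold change -0.69, FDR 0.0186). With 32-134D against vehicle at 1% O2, TF (-0.80, FDR 0.0152), TTR (-0.92, FDR 0.0205) and FGB (-0.98, FDR 0.0308) were called lower and APOB higher (3.12). The 32-134D libraries ranged from 584 to 1545 CPM for TF and from 9.79 to 37.9 CPM for TTR. These marker values are given with all libraries. Of 4 endothelial markers 0 had over 3 counts in every library, and VWF and TEK were at 0 throughout. Of 5 blood-cell markers 1 did, and PF4 was at 0. Of 5 stromal markers 3 did, with summed CPM of 36.1 to 39.7, 17.1 to 18.5 and 35.5 to 43.4 in the same order of groups. The part of these marker differences in the results was not tested. Scaling by total counts in place of TMM moved the median log2 fold change of all genes to -0.21 in the hypoxia comparison and to 0.17 in the 32-134D comparison.

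EPO (ENSG00000130427) lies on chromosome 7 at 100720800-100723700 of GRCh38, on the plus strand. GENCODE 29 gives it 1 transcript with 1330 exon bases and no overlapping gene. THPO (ENSG00000090534) lies on chromosome 3 at 184371935-184381968, on the minus strand, with 9 transcripts, 7 of them protein-coding, and 2705 exon bases. It overlaps CHRD on the plus strand, and 361 of its exon bases are shared with CHRD exons. The strand setting of the counting is not given in the sources used here, so reads in that stretch cannot be assigned to one gene or the other. The promoter sequences are shown because EPO and THPO responded to hypoxia in opposite directions. They come from RefSeq on GRCh38.p14, each from 250 bases before the annotated start site to 30 after it, 5′ to 3′ on the strand of the gene. Capitals mark the core letters of a HIF site, ACGTG or GCGTG, on either strand.
EPO promoter, plus strand, chr7:100720218-100720497: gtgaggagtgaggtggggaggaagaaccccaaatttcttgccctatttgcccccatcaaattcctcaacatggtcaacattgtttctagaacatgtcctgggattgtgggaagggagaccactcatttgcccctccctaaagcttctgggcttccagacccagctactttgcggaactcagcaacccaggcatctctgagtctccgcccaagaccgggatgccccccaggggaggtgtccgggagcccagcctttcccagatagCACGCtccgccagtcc
THPO promoter, minus strand, chr3:184379659-184379938: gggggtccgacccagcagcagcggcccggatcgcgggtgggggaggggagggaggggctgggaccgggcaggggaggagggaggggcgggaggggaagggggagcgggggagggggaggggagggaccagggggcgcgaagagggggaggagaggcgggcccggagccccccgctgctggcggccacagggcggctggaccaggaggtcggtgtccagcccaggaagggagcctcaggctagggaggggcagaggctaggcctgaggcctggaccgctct
The EPO window held 1 core, GCGTG on the antisense strand, 14 bases after the RefSeq start site at 100720468, which lies upstream of the GENCODE start. The THPO window at the start site 184379688 held none. RefSeq lists 2 further THPO start sites at 184378208 and 184378207, and their windows held no HIF core either. At the first of them, CCGGAA, the core of an ETS site bound by factors such as GABPA, lay on the antisense strand at -47, and AGGTCA, a nuclear receptor half-site, lay on the antisense strand at 23. Searched over 300 bases and both strands, ACGTG or GCGTG occurred in 48.4% of 35116 RefSeq promoters, CCGGAA in 17.2% and AGGTCA in 13.8%. A match is only a run of letters, and the hypoxia-response element known downstream of the EPO gene lies outside these windows.

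EPO rose strongly in hypoxia and fell with 32-134D to near its level at 20% O2. At 20% O2 the 3 vehicle libraries held 14, 2 and 20 EPO reads, or 1.00, 0.314 and 0.608 CPM. At 1% O2 the vehicle libraries held 306, 217 and 314 reads, or 8.11, 10.2 and 10.9 CPM. The libraries of 32-134D at 1% O2 held 28, 34 and 20 reads, or 0.794, 1.14 and 0.915 CPM. Every vehicle library at 1% O2 thus lay above all 6 others, while the ranges of vehicle at 20% O2 and 32-134D overlapped. The lowest library, replicate 2 of vehicle at 20% O2, was also the shallowest, and its 2 reads carried an exact Poisson interval of 0.0380 to 1.13 CPM, which covers counting error only. The group means were 0.642 ± 0.346, 9.73 ± 1.44 and 0.951 ± 0.178 CPM (SD, n = 3).

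**Figure D1:**
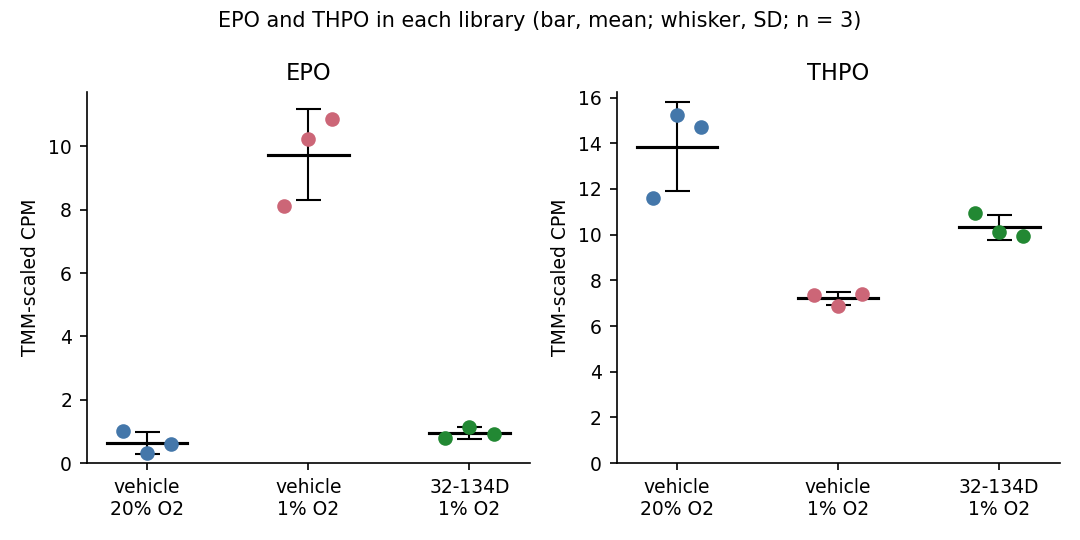
EPO (left) and THPO (right) in each of the 9 libraries, as TMM-scaled CPM on linear axes from 0, with 1 point per library, the mean of each group as a bar and the SD as a whisker (n = 3). EPO is high only in the 3 vehicle libraries at 1% O2, between 8.11 and 10.9 CPM, whereas the 3 groups of THPO do not overlap and vehicle at 1% O2 is the lowest.

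In the edgeR quasi-likelihood fit, EPO was 14.2-fold higher in vehicle at 1% O2 than in vehicle at 20% O2, a log2 fold change of 3.82 (SE 0.26, 95% interval 3.27 to 4.38, FDR 1.32e-08). Of the 22672 genes tested, 260 had a higher log2 fold change, and 19.5% were called higher. Against vehicle at 1% O2, EPO was 10.2-fold lower with 32-134D, a log2 fold change of -3.35 (SE 0.22, 95% interval -3.82 to -2.88, FDR 2.91e-08). Only 44 of the 22672 genes had a lower log2 fold change, and 13.7% were called lower. Without replicate 3 of 32-134D the value was -3.33. Set against vehicle at 20% O2, EPO with 32-134D differed by 0.47 on the log2 scale (95% interval -0.20 to 1.15, FDR 0.397), which did not pass the test, and the interval leaves room for a difference of over 1.5-fold. In that comparison 3.52% of genes were called in either direction. Since the 3 vehicle libraries at 1% O2 enter both of the first comparisons, the rise and the fall are not independent of each other. Placed on the log2 line between the means of the vehicle groups, the 32-134D replicates had moved 88.6%, 75.7% and 83.6% of the way back to 20% O2, or 82.7% ± 6.54 (SD, n = 3). That SD covers the 32-134D replicates only, since both vehicle means were taken as fixed, and the mean at 20% O2 rests on few reads. These are bulk libraries, so fewer expressing cells and less RNA per cell cannot be told apart.

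THPO moved the opposite way and by less. The 3 vehicle libraries at 20% O2 held 162, 97 and 483 THPO reads, or 11.6, 15.2 and 14.7 CPM. The vehicle libraries at 1% O2 held 278, 146 and 214 reads, or 7.37, 6.88 and 7.40 CPM. With 32-134D at 1% O2 there were 386, 300 and 217 reads, or 10.9, 10.1 and 9.92 CPM. Vehicle at 20% O2 was highest, 32-134D lay between, and vehicle at 1% O2 was lowest, with no overlap between any of the groups. The means were 13.8 ± 1.95, 7.22 ± 0.289 and 10.3 ± 0.548 CPM (SD, n = 3) for vehicle at 20% O2, vehicle at 1% O2 and 32-134D.

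In hypoxia THPO fell by 0.93 on the log2 scale (SE 0.13, 95% interval -1.20 to -0.66, FDR 1.72e-05), which is 1.91-fold lower. Of all genes tested, 20.3% were called lower in hypoxia, and 5108 had a lower log2 fold change than THPO. With 32-134D, THPO was 1.43-fold above vehicle at 1% O2, a log2 fold change of 0.52 (SE 0.12, 95% interval 0.25 to 0.78). Its edgeR FDR was 0.00290, but the fold change was below the threshold of 1.5, so THPO was not called, while 16.2% of genes were called higher. The call depended on the setting. It passed with total library size (0.70), over genes that reached 10 counts in each of the libraries (0.61), and when replicate 3 of vehicle at 1% O2 was dropped (0.60). Without replicate 3 of 32-134D it was 0.54 and did not pass. Against vehicle at 20% O2, THPO with 32-134D was 1.33-fold lower, a log2 fold change of -0.42 (SE 0.12, 95% interval -0.68 to -0.15, edgeR FDR 0.0479), and was not called at a fold change of 1.5, where 0.516% of genes were called lower. The 32-134D replicates had moved 64.7%, 52.2% and 49.5% of the way back to vehicle at 20% O2, or 55.4% ± 8.12 (SD, n = 3), again with both vehicle means taken as fixed.

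CHRD, which encodes the BMP antagonist chordin and shares exon bases with THPO on the other strand, was measured at 24.5, 24.3 and 23.4 CPM in vehicle at 20% O2. It was at 15.2, 15.4 and 12.6 CPM in vehicle at 1% O2 and at 18.7, 18.7 and 15.05 CPM with 32-134D. Both genes were thus highest at 20% O2. CHRD fell in hypoxia (log2 fold change -0.74, FDR 6.63e-05) and was not called with 32-134D against vehicle at 1% O2 (0.28, FDR 0.0523). How far shared reads enter either value was not tested.

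**Figure D2:**
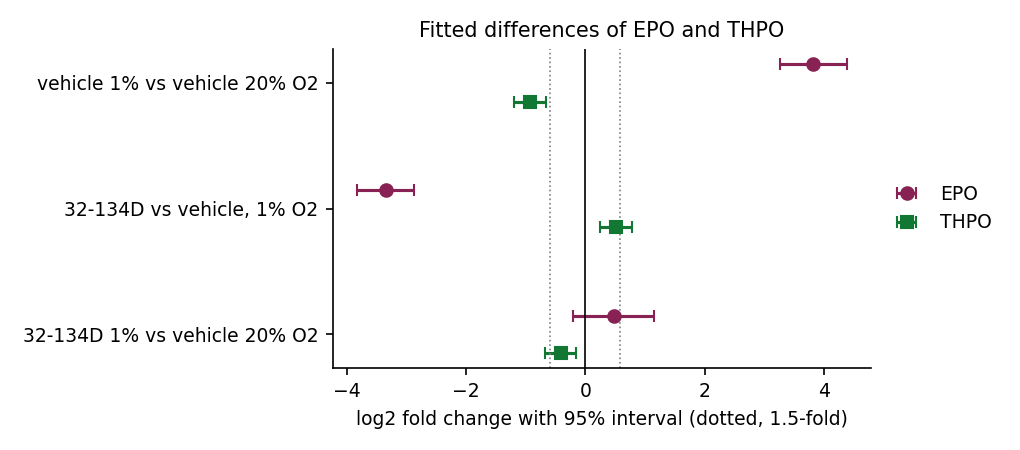
Log2 fold changes of EPO (circles) and THPO (squares) in the 3 comparisons, with 95% intervals from the edgeR fit of 9 libraries and dotted lines at 1.5-fold. The intervals of the hypoxia comparison lie on opposite sides of 0, at 3.27 to 4.38 for EPO and -1.20 to -0.66 for THPO, and the interval of EPO in 32-134D against vehicle at 20% O2 spans 0.

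The balance between the hormones turned over in hypoxia. Per kilobase of exon, EPO was at 0.483 ± 0.260, 7.32 ± 1.08 and 0.715 ± 0.134 CPM per kb (SD, n = 3) in vehicle at 20% O2, vehicle at 1% O2 and 32-134D. THPO was at 5.12 ± 0.721, 2.67 ± 0.107 and 3.82 ± 0.202 CPM per kb in the same order. The order of the hormones was therefore reversed only in vehicle at 1% O2 among the 3 groups. Computed within each library with 0.5 added to each count, the ratio of EPO to THPO per kilobase was 0.181, 0.0521 and 0.0862 at 20% O2. It was 2.24, 3.02 and 2.98 in vehicle at 1% O2, and 0.150, 0.234 and 0.192 with 32-134D. EPO exceeded THPO in all 3 vehicle libraries at 1% O2 and in none of the other 6.

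The log2 ratio of reads, which needs no scaling between libraries, averaged -4.44 ± 0.905 in vehicle at 20% O2, 0.42 ± 0.244 in vehicle at 1% O2 and -3.43 ± 0.320 with 32-134D (SD, n = 3). Hypoxia raised it by 4.86, or 29.1-fold, with no overlap between the groups. A two-sided exact permutation test gave p = 0.1, the smallest value that 3 against 3 libraries allow. With 32-134D the log2 ratio fell by 3.85, or 14.4-fold, again with no overlap and an exact permutation p of 0.1. Between 32-134D and vehicle at 20% O2 the difference in the log2 ratio was 1.01, the groups overlapped, and the exact permutation p was 0.2. The same direction was seen in each comparison when any 1 library was left out, with differences of 4.44 to 5.34, -4.00 to -3.69 and 0.59 to 1.49.

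**Figure D3:**
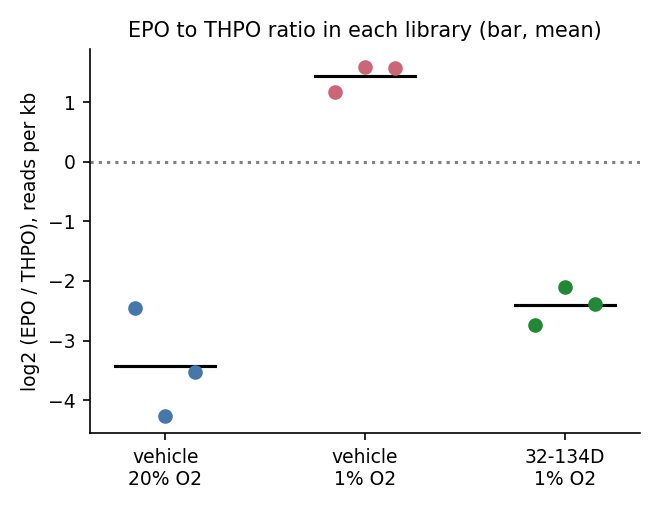
Log2 ratio of EPO to THPO, in reads per kilobase of exon with 0.5 added to each count, in each of the 9 libraries, with the group mean as a bar and a dotted line at equal levels. Vehicle at 1% O2 lies above the line at a mean of 1.44, and both other groups lie below it, at means of -3.42 and -2.41.

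The erythropoietin receptor and the kinases, STAT factors and inhibitors that act behind such receptors form a list of 13 genes, all tested. In hypoxia 5 rose, 0 fell and 8 were not called by edgeR, with a median log2 fold change of 0.45 beside 0.00100 for all genes, and 39.7% of all genes were called in either direction. With 32-134D against vehicle at 1% O2, 0 rose, 2 fell and 11 were not called, with a median of -0.32 beside -0.01, and 29.9% of all genes were called. Against vehicle at 20% O2, 3 were higher with 32-134D and 10 were not called, beside 3.52% of all genes called in either direction.

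EPOR, the erythropoietin receptor, was expressed at 32.3, 35.5 and 32.5 CPM in vehicle at 20% O2 and at 32.9, 34.0 and 34.2 CPM in vehicle at 1% O2. The hypoxia difference was 0.02 on the log2 scale (FDR 0.919) and its sign depended on the scaling, at -0.20 by total library size. With 32-134D, EPOR was at 28.4, 28.6 and 19.8 CPM, all below the 6 vehicle libraries, and replicate 3 was the lowest. That difference was -0.39 (FDR 0.0134), or -0.24 without replicate 3 of 32-134D, and was not called at a fold change of 1.5.

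Among the genes behind the receptor, the rises called in hypoxia were in inhibitors and in 1 kinase. SOCS3, a feedback inhibitor of JAK kinases, rose from 1.85 ± 0.819 to 8.85 ± 0.516 CPM (log2 fold change 2.19, FDR 3.82e-07). It was at 4.03 ± 0.164 CPM with 32-134D, below vehicle at 1% O2 (-1.13, FDR 7.92e-05) and above vehicle at 20% O2 (1.06, FDR 0.00547), a call lost without replicate 3 of vehicle at 20% O2 (FDR 0.0638). The kinase LYN, which takes part in erythropoietin signaling, rose by 0.98 (FDR 2.21e-06) and fell with 32-134D by 0.68 (FDR 7.14e-05), a call lost with total library size (-0.49) and under a filter of 10 counts in each library (-0.58). SOCS1 rose in hypoxia by 0.81 (FDR 0.00623). SH2B3, an adaptor also called LNK that restrains JAK2, rose by 1.03 (FDR 0.000488). SOCS2 rose by 1.10 (FDR 0.00952), a call lost without replicate 3 of vehicle at 20% O2 (FDR 0.0623).

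SOCS2 and SH2B3 were called higher with 32-134D than in vehicle at 20% O2, and replicate 3 of 32-134D was far above the others in both. SOCS2 was at 6.38, 6.63 and 16.4 CPM with 32-134D and SH2B3 at 25.5, 26.3 and 48.3 CPM. Without replicate 3 of 32-134D the SH2B3 difference fell from 0.88 to 0.52 and was no longer called, and that of SOCS2 fell from 1.18 to 0.61. The SOCS2 call was lost without replicate 2 of vehicle at 20% O2 (FDR 0.121), its replicate 3 (FDR 0.155) or replicate 1 of vehicle at 1% O2 (FDR 0.0552). That of SH2B3 was lost without replicate 1 or 3 of vehicle at 20% O2 (FDR 0.0604 and 0.0586). With SOCS3, these were the 3 of the 13 genes called in that comparison, beside 3.0% of all genes called higher. JAK2 itself was at 6.58 ± 0.646 CPM at 20% O2 and 8.76 ± 1.12 CPM in vehicle at 1% O2 (log2 fold change 0.45, FDR 0.0148) and was not called. STAT5A and STAT5B differed in hypoxia by 0.29 (FDR 0.0221) and 0.54 (FDR 3.26e-05). With 32-134D against vehicle at 1% O2 each differed by -0.35 (FDR 0.00762 and 0.00136). All of these were under 1.5-fold and so not called. STAT3 differed in hypoxia by -0.04 (FDR 0.686).

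**Figure D4:**
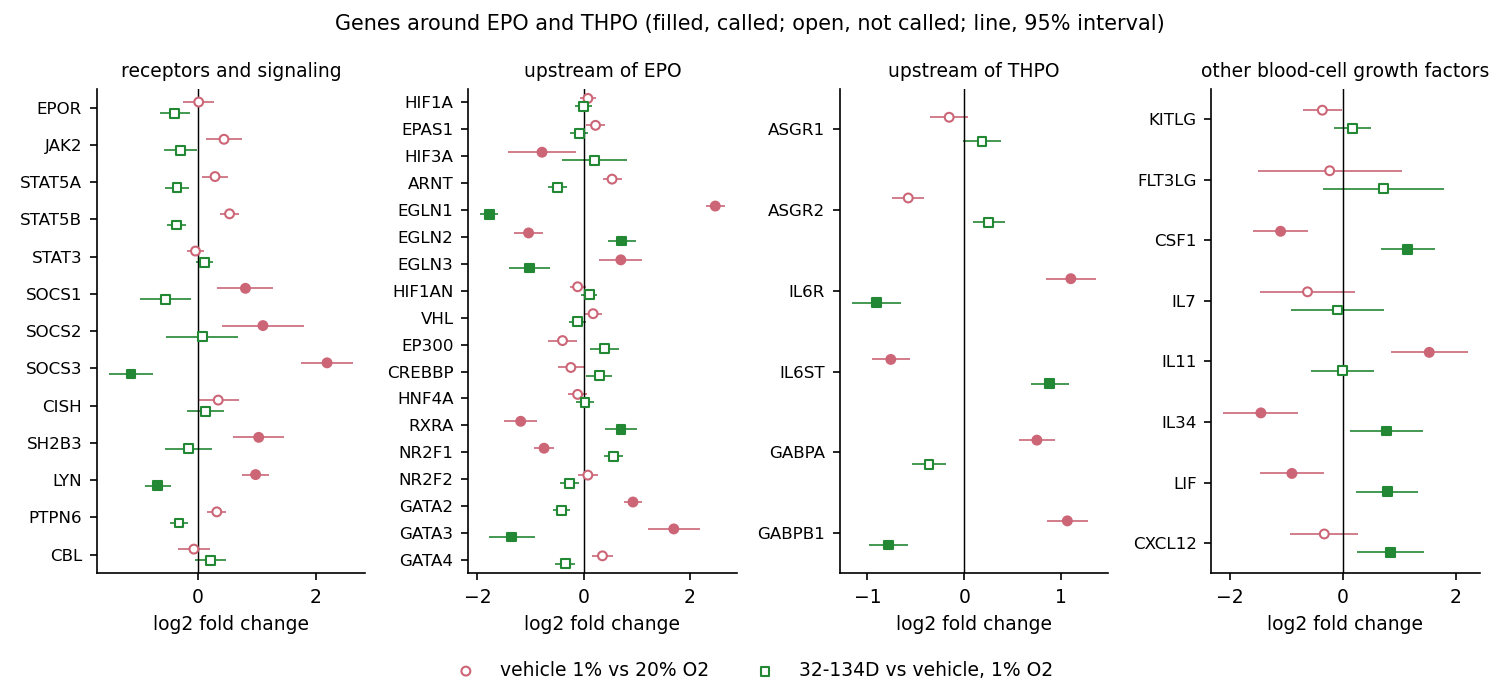
Log2 fold changes with 95% intervals of the genes tested in 4 lists around EPO and THPO, for vehicle at 1% against 20% O2 (circles) and for 32-134D against vehicle at 1% O2 (squares). Filled symbols passed an FDR of 0.05 and a fold change of 1.5, and each panel has its own linear axis. HIF1A, EPAS1 and HNF4A lie near 0, while EGLN1 stands farthest to the right in hypoxia among the genes upstream of EPO.

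Upstream of EPO, 18 of 19 genes were tested, since WT1 had only 4 counts in all. In hypoxia 4 rose, 4 fell and 10 were not called, where 39.7% of all genes were called in either direction. With 32-134D 2 rose, 3 fell and 13 were not called, beside 29.9% of all genes. These shares are close to those of all genes, and the medians were 0.08 and -0.04. HIF1A, the α subunit of HIF-1, was at 163 ± 11.3, 173 ± 8.30 and 173 ± 5.99 CPM in vehicle at 20% O2, vehicle at 1% O2 and 32-134D. EPAS1, the α subunit of HIF-2, was at 175 ± 17.2, 205 ± 5.77 and 194 ± 11.7 CPM. Neither mRNA was called in hypoxia or with 32-134D. These libraries do not measure protein, and the part of either α subunit in the EPO differences was not tested. For EPAS1 the hypoxia difference was 0.23 (FDR 0.0274) and the 32-134D difference -0.08 (FDR 0.430), and the sign of the latter turned under total library size. ARNT, the common partner of both α subunits, was 0.54 higher in hypoxia (FDR 5.93e-05) and 0.49 lower with 32-134D (log2 fold change -0.49, FDR 0.000164), both under 1.5-fold and so not called.

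The oxygen-sensing prolyl hydroxylases moved in both directions. EGLN1, the main one, rose from 42.7 ± 4.12 to 238 ± 10.5 CPM in hypoxia (log2 fold change 2.48, FDR 1.20e-11) and was at 69.4 ± 1.23 CPM with 32-134D (-1.78, FDR 6.11e-10). It was the only 1 of the 18 genes called against vehicle at 20% O2 (0.71, FDR 5.40e-05), where 3.52% of all genes were called. EGLN3 rose by 0.70 (FDR 0.00561) and fell with 32-134D by 1.02 (FDR 0.000287). Its rise was not called without replicate 3 of vehicle at 1% O2 (0.57) or with total library size (0.49). EGLN2 went the opposite way, falling in hypoxia (-1.04, FDR 6.26e-06) and rising with 32-134D (0.72, FDR 0.000218). HIF3A, which has forms that oppose HIF, was called lower in hypoxia (-0.78, FDR 0.0370), but the call was lost without any 1 of the 6 vehicle libraries (FDR 0.0546 to 0.151).

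HNF4A, the hepatocyte nuclear receptor that acts with HIF at the EPO enhancer, was at 382 ± 42.9, 353 ± 6.11 and 361 ± 16.9 CPM and was not called (-0.11, FDR 0.270 in hypoxia and 0.03, FDR 0.800 with 32-134D). Its fellow nuclear receptor RXRA fell in hypoxia from 278 ± 25.1 to 122 ± 5.08 CPM (-1.18, FDR 5.54e-06) and rose with 32-134D (0.71, FDR 0.000784). NR2F1, an orphan receptor that can compete with HNF4A for its sites, also fell (-0.74, FDR 3.95e-06) and was 0.56 higher with 32-134D, under 1.5-fold. It passed under several alternatives, at up to 0.75 with total library size. GATA2 and GATA3, factors known to hold EPO down through its promoter, rose in hypoxia by 0.93 (FDR 1.51e-07) and 1.70 (FDR 1.58e-05). GATA3 fell with 32-134D by 1.35 (FDR 6.32e-05), while the GATA2 difference was -0.42 (FDR 0.000364) and was not called. GATA4 was at 108 ± 7.03, 138 ± 11.7 and 109 ± 10.5 CPM. It was not called in hypoxia (0.36, FDR 0.00339) or with 32-134D (-0.34, FDR 0.00476).

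All 6 genes upstream of THPO were tested. In hypoxia 3 rose and 1 fell, beside 39.7% of all genes called in either direction, and with 32-134D 1 rose and 2 fell, beside 29.9%. Against vehicle at 20% O2, where 3.52% of all genes were called, edgeR called 0 of the 6. With no fold threshold it called 2, where 1771 of all genes were higher and 553 lower. ASGR1, the major subunit of the asialoglycoprotein receptor, was at 168 ± 2.96, 151 ± 16.9 and 171 ± 16.6 CPM in vehicle at 20% O2, vehicle at 1% O2 and 32-134D and was not called (-0.16, FDR 0.160 in hypoxia and 0.18, FDR 0.111 with 32-134D). ASGR2, the other subunit, was at 412 ± 21.7, 276 ± 26.4 and 328 ± 1.64 CPM. Its hypoxia difference of -0.58 (FDR 1.49e-05) lay just under 1.5-fold, and it passed under 9 of 16 alternatives, at up to -0.79. The interleukin-6 receptor chains, through which inflammation raises hepatic THPO, went in opposite directions. The ligand-binding chain IL6R rose in hypoxia by 1.10 (FDR 2.09e-06) and fell with 32-134D by 0.91 (FDR 1.62e-05). The signaling chain IL6ST fell in hypoxia (-0.76, FDR 5.30e-06) and rose with 32-134D (0.88, FDR 1.79e-06). GABPA and GABPB1, the subunits of an ETS factor of the kind that binds CCGGAA, rose in hypoxia by 0.75 (FDR 3.10e-06) and 1.06 (FDR 3.15e-07) while THPO fell. GABPB1 fell with 32-134D by 0.78 (FDR 7.71e-06). For GABPA that difference was -0.37 (FDR 0.00198) and was not called, and its rise in hypoxia was not called with total library size (0.54).

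Most other growth factors of blood cells had too few reads to test, fell or were not called in hypoxia. Of 14 such genes, CSF2, CSF3, IL3, IL5, IL6 and OSM had at most 5 counts over the 9 libraries and were not tested. Of the 8 tested, 1 rose and 3 fell in hypoxia, with a median of -0.49, while 19.5% of all genes were called higher and 20.3% lower. With 32-134D 4 rose and 0 fell, with a median of 0.75 beside -0.01 for all genes, of which 16.2% were called higher and 13.7% lower. Compared with vehicle at 20% O2, 1 was higher and 0 lower, beside 3.52% of all genes called in either direction. The gene that rose in hypoxia was IL11, a cytokine that supports megakaryocytes, at 2.21 ± 0.725, 6.04 ± 0.358 and 6.12 ± 2.86 CPM in vehicle at 20% O2, vehicle at 1% O2 and 32-134D (hypoxia log2 fold change 1.53, FDR 0.000781). IL11 with 32-134D was also above vehicle at 20% O2 (1.53, FDR 0.00682), or 1.14 without replicate 3 of 32-134D. That call was lost without replicate 3 of vehicle at 20% O2 (FDR 0.0781). KITLG, the stem cell factor, was not called in hypoxia (-0.36, FDR 0.0704) or with 32-134D (0.17, FDR 0.379).

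CSF1 and IL34, the ligands of the macrophage receptor CSF1R, and LIF, a cytokine of the IL-6 family, fell in hypoxia by 1.10 (FDR 0.000844), 1.45 (FDR 0.00104) and 0.90 (FDR 0.0100). CSF1 rose with 32-134D by 1.15 (FDR 0.000546), and its 32-134D libraries were at 11.4, 9.49 and 20.5 CPM. Without replicate 3 of 32-134D the value was 0.77 and was still called. LIF was at 4.0, 4.07 and 8.60 CPM with 32-134D, and its difference of 0.79 (FDR 0.0191) fell to 0.36 (FDR 0.0627) without replicate 3. CXCL12, the chemokine that holds blood stem cells in the marrow, was at 31.6, 32.3 and 85.1 CPM with 32-134D. Its difference of 0.85 (FDR 0.0193) fell to 0.22 without replicate 3 of 32-134D. IL34 went the other way, at 1.25, 1.68 and 0.777 CPM with 32-134D, and its difference was 0.78 (FDR 0.0454) with all libraries and 0.99 (FDR 0.00377) without replicate 3. Without replicate 3 of 32-134D, 2 of the 4 rises were thus called.

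Other single libraries also decided these calls. Those of LIF and CXCL12 were lost without replicate 1 of vehicle at 1% O2 (FDR 0.0850 and 0.0518), and that of CXCL12 without its replicate 2 (FDR 0.0567). The call of IL34 was lost without replicate 1 or 2 of vehicle at 1% O2 (FDR 0.137 and 0.110), replicate 2 of vehicle at 20% O2 (FDR 0.0572) or replicate 1 or 2 of 32-134D (FDR 0.0675 and 0.237). The number of rises called with 32-134D was 1 without replicate 1 of vehicle at 1% O2 and 2 without its replicate 2.

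Of 8 annotated genes with any part within 100 kb of EPO on chromosome 7, 5 were tested. In hypoxia 1 rose, 2 fell and 2 were not called, beside 39.7% of all genes called in either direction. With 32-134D 1 fell and 4 were not called, beside 29.9%. GNB2, a G protein subunit whose start lies upstream, at -47.27 kb from the EPO start, rose by 0.85 (FDR 4.41e-07) and fell with 32-134D by 0.79 (FDR 1.63e-06). The closest tested gene, POP7, a subunit of RNase P that starts at -14.75 kb, differed by 0.56 in hypoxia (FDR 6.34e-05) and -0.56 with 32-134D (FDR 7.17e-05), both under 1.5-fold. POP7 passed in hypoxia with no filter on low counts (0.59) and without replicate 1 of either vehicle group (0.62 at 1% O2 and 0.59 at 20% O2), and with 32-134D without replicate 1 of vehicle at 1% O2 (-0.62). TFR2, a transferrin receptor that also modulates erythropoietin signaling, fell (-0.98, FDR 0.00644). GIGYF1, a translational repressor, fell as well (-0.67, FDR 7.83e-06), and with 32-134D was 0.51 higher and not called. That difference passed with total library size (0.70), over genes that reached 10 counts in each library (0.61) and without replicate 1 of 32-134D (0.62). ZAN, which starts 12.83 kb downstream, had only 2 counts in all.

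Around THPO on chromosome 3, 6 of 10 genes were tested. In hypoxia 2 rose and 2 fell, beside 39.7% of all genes called in either direction, and with 32-134D 1 rose and 2 fell, beside 29.9%. CHRD, described above, starts 1.90 kb from THPO. EIF4G1, a scaffold of translation initiation, fell from 1035 ± 90.6 to 519 ± 20.2 CPM in hypoxia (-0.997, FDR 3.50e-08) and rose with 32-134D (0.80, FDR 6.53e-07), the same directions as THPO. FAM131A and POLR2H, a shared subunit of the RNA polymerases, rose in hypoxia by 1.01 (FDR 5.93e-07) and 1.25 (FDR 9.62e-09). They fell with 32-134D by 0.80 (FDR 6.28e-06) and 0.68 (FDR 5.92e-06), and the call of POLR2H with 32-134D was lost with total library size (-0.50).

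The genes most like each hormone across the 9 libraries were found among 13910 genes with a mean of at least 1 CPM, by the root mean square difference between centred log2 CPM profiles. For EPO, whose own profile had a root mean square of 1.74, the nearest were BNIP3 at 0.388, EFNA1 at 0.423, CXCR4 at 0.424, SPAG4 at 0.425 and CA9 at 0.431. BNIP3 acts in mitophagy, EFNA1 is a ligand of Eph receptors, CXCR4 is the receptor of CXCL12, SPAG4 is a nuclear envelope protein and CA9 is a carbonic anhydrase of the cell surface. Their hypoxia log2 fold changes lay between 3.54 for SPAG4 and 4.38 for CA9, around the 3.82 of EPO. With 32-134D they lay between -2.53 for CXCR4 and -3.36 for CA9. Against vehicle at 20% O2, BNIP3 (0.98), EFNA1 (1.17), CXCR4 (1.38) and CA9 (1.03) were called higher with 32-134D, while SPAG4 (0.40, FDR 0.150), like EPO (0.47), was not. EPO was measured with fewer reads, and its interval against 20% O2 of -0.20 to 1.15 takes in the values of BNIP3 and CA9.

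For THPO, whose own profile had a root mean square of 0.393, the nearest were ARPIN at 0.0781, FANCA at 0.0793, SGSM2 at 0.0801, FUT8 at 0.0870 and CUL9 at 0.0907. ARPIN inhibits the Arp2/3 complex, FANCA acts in DNA crosslink repair, FUT8 adds core fucose to glycoproteins and CUL9 is a cullin. All 5 fell in hypoxia, with log2 fold changes of -0.84 to -0.96. With 32-134D, ARPIN (0.67), FUT8 (0.60) and CUL9 (0.62) rose, while FANCA (0.55) and SGSM2 (0.56) were, like THPO (0.52), under 1.5-fold. The call of FUT8 was lost without replicate 2 of 32-134D (0.58) or replicate 1 of vehicle at 1% O2 (0.57). FANCA and SGSM2 passed under 9 of 16 alternatives each. The likeness was measured on the same libraries as the fold changes and is a description.

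**Figure D5:**
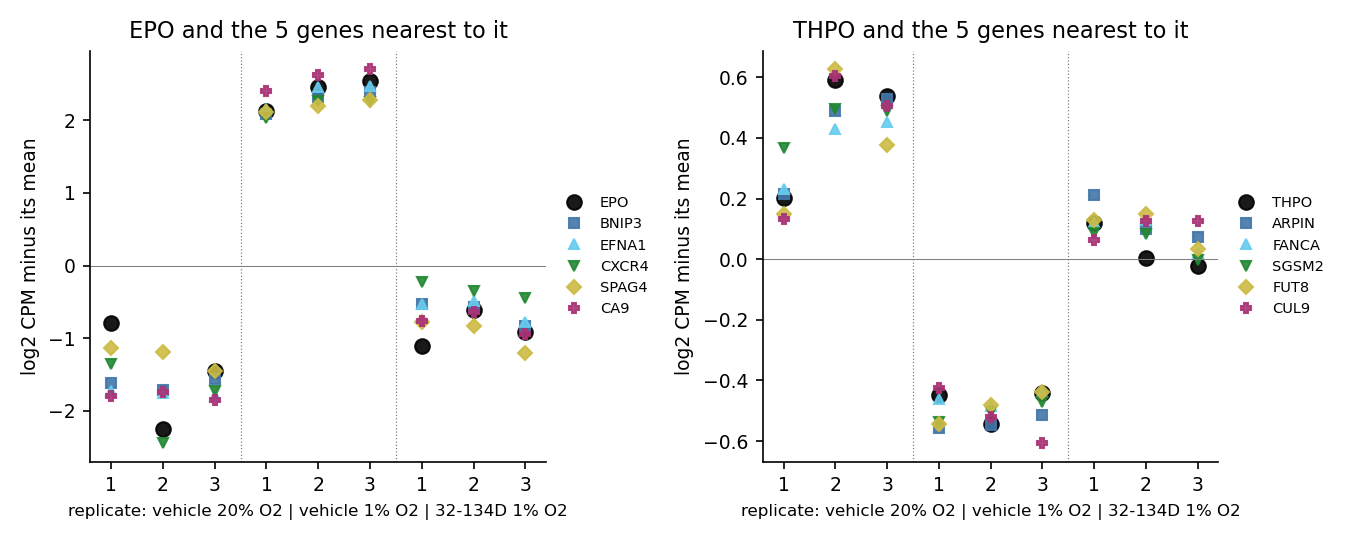
Centred log2 CPM of EPO (left) and THPO (right) with the 5 genes nearest to each, in replicates 1 to 3 of vehicle at 20% O2, vehicle at 1% O2 and 32-134D at 1% O2, which dotted lines separate. The vertical axes differ in scale, since the profile of EPO has a root mean square of 1.74 and that of THPO of 0.393, and the EPO points scatter most in vehicle at 20% O2, where its reads were fewest.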

How the data were processed

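Sequencing libraries of Hep3B RNA fell into 3 groups of 3. The deposited values are raw counts of reads per Ensembl gene. Per the labels and the study's methods, the authors checked reads with FastQC, trimmed with Bbduk, aligned to GRCh38 with STAR and counted with featureCounts. Tool versions and the strand setting of the counting are not given in the sources used here. Each of the 9 columns carries the name of 1 sample, and 0 columns had none. The labels state no dose of 32-134D.

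Counts of genes summing to at least 10 were scaled by TMM and compared in edgeR 4.0.16 (R 4.3.3) with its quasi-likelihood test. All 9 libraries entered 1 fit with no covariate, which pools the spread (common biological coefficient of variation 10.5%). Calls needed a Benjamini-Hochberg FDR below 0.05 over all 22672 genes as well as a change of over 1.5-fold, as in the study, where DESeq2 was used. Standard errors were taken from the fitted log2 fold change and its F statistic. The ratio of EPO to THPO was compared by a two-sided exact permutation test. Log2 CPM for the likeness search used a prior count of 2. Positions, exon lengths and neighbours came from GENCODE 29 on GRCh38, in which 22265 of the tested genes were found, and promoters from RefSeq. Both hormones matched a RefSeq promoter. The deposited counts use a later Ensembl annotation of the same assembly.

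EPO, THPO and the gene lists were chosen with earlier results of these data known. The genes named are the hormones, members of these lists and the 5 nearest genes by profile. Alternatives were DESeq2 1.42.0, other scalings, other filters on low counts, no fold change threshold, fits of only the groups compared, a block for replicate number, and dropping single libraries. On counts simulated for the hypoxia comparison with 200 of 22111 genes changed, edgeR recovered 90% of the 2-fold and 99% of the 4-fold changes, and 5.03% of its calls were false. In the data a far larger share of genes, 39.7%, was called in that comparison, so these rates need not hold there. No replicate looked like reads drawn again from the library of another, since the chi-square per degree of freedom of each pair within a group was at least 1.64. That value grows with depth, and the pair at 1.64 held the shallowest library. It cannot tell whether 2 libraries came from the same RNA. Precision is limited by 3 replicates and, for EPO, by few reads. Some single genes are not reported here.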

Additional observations from a re-analysis of the deposited data

How the results depend on the processing

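EPO kept its direction and its side of the thresholds in each comparison under all 15 alternatives that gave a value, at 3.61 to 4.09 in hypoxia, -3.51 to -3.15 with 32-134D and 0.30 to 0.80 against vehicle at 20% O2. A filter of 10 counts in each library removed it. THPO did so under 16 alternatives in hypoxia (-1.14 to -0.88). Against vehicle at 20% O2 it was lower and under 1.5-fold in each (-0.52 to -0.36), but its FDR of 0.0479 lay on either side of 0.05 among them (0.0173 to 0.194). With 32-134D against vehicle at 1% O2 THPO passed when scaled by total library size (0.70) and under a filter of 10 counts in each library (0.61), and it ranged from 0.49 to 0.60 as each library was left out. The cause of these shifts was not tested.

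Under the filter of 10 counts in each library, which leaves fewer genes, 2824 genes were higher in hypoxia and 1771 lower with 32-134D. With 32-134D, 0 receptor and signaling genes were then called, since the filter removed SOCS3 and LYN was under 1.5-fold (-0.58). With total library size 1847 genes were lower with 32-134D, and 1 receptor and signaling gene was called. With no fold change threshold, 5788 of the 22672 genes tested were lower with 32-134D. Against vehicle at 20% O2, 1771 were then higher and 553 lower. The highest numbers under any alternative were 6318 higher and 5848 lower in hypoxia, and 4973 higher with 32-134D. Without the threshold the receptor list had 9 calls in hypoxia, all higher, and 7 with 32-134D, all lower. The genes upstream of EPO had 12 with 32-134D and 3 against vehicle at 20% O2, and those upstream of THPO 5 and 2. The shares of all genes given with each list are for the 1.5-fold rule and do not apply to these counts. Genes lower than in vehicle at 20% O2 numbered 117 as reported, 291 with no filter and 44 in a fit of only those groups, in which 1 receptor gene was called. As each library was left out, they ranged from 35 to 198 (62, 35 and 41 without replicates 1 to 3 of vehicle at 20% O2, 46 without replicate 3 of vehicle at 1% O2, 198 and 176 without replicates 1 and 2 of 32-134D), the receptor list from 0 to 3, the genes upstream of EPO from 1 to 2 (without replicate 1 or 2 of 32-134D) and the growth factors from 0 to 1 in that comparison, and the growth factors from 1 to 4 with 32-134D. Against vehicle at 20% O2, the receptor and growth factor calls fell to 0 without its replicate 3.

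The signs that turned belonged to differences that were not called. EPOR in hypoxia was -0.0311 with DESeq2, -0.0303 with its size factors, -0.20 with total library size, -0.0925 under the filter of 10 counts in each library and -0.0591 to 0.0550 as each library was left out. HIF1A in hypoxia was -0.13 and -0.0272 under the latter 2 settings and -0.000573 to 0.14 as libraries were left out, and with 32-134D -0.00711 with no filter and -0.0190 to 0.0610. EPAS1 with 32-134D was 0.10 and 0.0121 under the same 2 settings and -0.13 to 0.0144. HNF4A with 32-134D was -0.00946 to 0.11.

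Replicate numbers did not pair the samples. Over 9 same-numbered pairs the correlation of deviations was -0.03 to 0.00525, and 0 of 9 libraries correlated best with their own number. With a replicate block EPO was 3.82 in hypoxia and -3.34 with 32-134D and THPO -0.93 and 0.52, and of the results followed here only the IL34 call with 32-134D changed (FDR 0.0727).

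Depth limits EPO at 20% O2, where 1 library held 2 reads. With 3 libraries a group the exact permutation test of the ratio cannot go below p = 0.1.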
